A study of Homo sapiens with 3 samples.

Results

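Ends of the human telomerase RNA (hTR) that carried 30 or more genome-encoded nucleotides past the mature 3′ end are described here, as read counts in RNA bound by each of 3 proteins. The members are the addition lengths from 30 nt to the last listed length in each deposited table, 170 of the 200 listed lengths, with every listed tail length. They were selected on the length of the addition alone, so the share of reads past 30 nt and its fall with length are given as descriptions, while the adenosine tails were not used in the choice. In the PABPN1 library 119 of the 170 lengths held at least 1 read, and these held 42286 of 2658507 reads. In the hTERT library 46 lengths held 818 of 3040560 reads, and in the DKC1 library 39 lengths held 616 of 2996292 reads.

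Each protein had 1 library, made from HEK293 human embryonic kidney cells (the source names call them 293FT). The cells expressed Flag-PABPN1, Flag-hTERT or Flag-DKC1 from a tetracycline-sensitive promoter after induction with doxycycline at 500 ng/ml, so all values concern tagged, induced proteins. RNA was recovered with the Anti-Flag M2 antibody, a linker was ligated to RNA 3′ ends, and hTR was amplified in 3 PCR rounds with a barcode per library. Neither input RNA nor a precipitate without a tagged protein was analysed here, and whether each line was a single clone was not given in the sources used here. A single library per protein gives no spread between replicates, so proteins were compared without a test. Every interval below is a 95% interval for counting error only, because copies made by PCR were not separated from independent molecules by identifiers.

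hTR is the RNA that carries the template of telomerase, and it is transcribed as a longer precursor whose 3′ end is trimmed back to the mature end. Nuclear polymerases such as PAPD5 add short adenosine tails to its precursors, the deadenylase PARN removes such tails, and the nuclear exosome degrades precursors. PABPN1 binds poly(A) tails in the nucleus and has a known role in hTR maturation. hTERT is the catalytic protein of telomerase, which copies the hTR template into DNA. DKC1, or dyskerin, belongs to the H/ACA protein complex that binds hTR and holds it stable.

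hTR is encoded by TERC (gene ID 7012), annotated as telomerase RNA at positions 169764610 to 169765060 of chromosome 3 in GRCh38.p14, a gene of 451 nt. TERC lies on the minus strand, as background knowledge, and if an addition of 0 nt is the annotated end, these additions end at positions 169764580 down to 169764411. The RefSeq table lists 0 genes in that window, and the next listed gene on this side, RNU6-637P, ends 44317 nt from TERC position 169764610. The file headings do not define the mature end, so these positions rest on that reading.

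Long ends were rare in every library and most frequent with PABPN1. In PABPN1 they made up 1.59% of reads, with an exact Clopper-Pearson interval of 1.58 to 1.61. The hTERT share was 0.0269% (0.0251 to 0.0288), and that of DKC1 was 0.0206% (0.0190 to 0.0222). The PABPN1 share was 59.1 times the hTERT share (Katz interval 55.2 to 63.4) and 77.4 times the DKC1 share (71.5 to 83.8). Long ends were 3.06% of all extended PABPN1 reads, 0.0498% of extended hTERT reads and 0.0368% of extended DKC1 reads. Of all tailed reads they held 9.24% in PABPN1, 0.331% in hTERT and 0.275% in DKC1.

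The boundary of 30 nt lies on a smooth slope. Just outside it, an addition of 29 nt had 5756 PABPN1, 135 hTERT and 123 DKC1 reads. Just inside it, an addition of 30 nt had 4828, 117 and 84 reads, the most of any long end in each library. The lengths next to it had the next highest counts outside PABPN1, with 88 hTERT and 75 DKC1 reads at 31 nt and 89 hTERT and 66 DKC1 reads at 32 nt.

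hTERT and DKC1 reads became fewer relative to PABPN1 reads from 10 to 49 nt. For every 100 PABPN1 reads there were 26.4 hTERT and 22.4 DKC1 reads at 10 to 19 nt, and 3.22 and 2.71 at 20 to 29 nt. At 30 to 39 nt there were 2.13 hTERT reads (exact Poisson interval 1.97 to 2.31) and 1.65 DKC1 reads (1.51 to 1.81). At 40 to 49 nt there were 1.60 (1.35 to 1.89) and 1.06 (0.855 to 1.29), and at 50 to 59 nt 1.45 (1.08 to 1.91) and 1.11 (0.788 to 1.52). From 40 nt on the intervals of neighbouring classes overlapped, so no further fall was detectable at this depth. The labels say that barcoded libraries were combined for sequencing, and whether some of these few reads belong to another library was not tested.

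In the PABPN1 library the number of ends fell with length from 30 to 69 nt, with no separate cluster. Reads fell from 28237 at 30 to 39 nt to 8988 at 40 to 49 nt, 3518 at 50 to 59 nt and 962 at 60 to 69 nt. A least-squares line through log2 reads at 30 to 69 nt halved the reads every 6.26 nt, and the fits to single classes of 10 nt gave between 5.75 and 7.46 nt. The fall was steeper just before this range, with a halving distance of 3.47 nt at 20 to 29 nt. This change was larger among untailed ends, with 2.93 nt at 20 to 29 nt and 5.19 nt at 30 to 39 nt. For tailed ends the distances were 6.34 and 7.24 nt. Of ends extended 30 nt or more, 33.2% reached 40 nt, 12.0% reached 50 nt, 3.65% reached 60 nt and 1.37% reached 70 nt.

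All 41 additions from 30 to 70 nt held at least 50 reads and formed 1 unbroken run, with 98.8% of the long reads. Within it, 1 addition exceeded each of its neighbours within 2 nt on both sides, 66 nt with 78 reads, against 68 at 65 nt and 73 at 67 nt. This excess is within the counting error of so few reads, since the ratio of 66 nt to its neighbours had an interval of 0.8395 to 1.46. Across additions of 30 to 69 nt, the reads at each length over the geometric mean of both neighbours ran from 0.837 to 1.16 with a median of 1.003, and the interval excluded 1 at 6 of 40 lengths. It lay above 1 at 33, 35 and 47 nt and below 1 at 32, 34 and 36 nt. These ratios were added after seeing the data. From 32 to 36 nt, where counts were high, the ratios alternated below and above 1, but ratios at neighbouring lengths share counts. The intervals were not adjusted for the 40 lengths and cover counting error only, so an uneven fall is not established.

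The most marked single step was among untailed ends after 47 nt, a position picked out once its counts were known. Untailed PABPN1 reads numbered 375 at 46 nt, 420 at 47 nt, 251 at 48 nt and 227 at 49 nt. The count at 47 nt was 1.37 times the geometric mean of its neighbours (interval 1.21 to 1.55), the highest such ratio among 30 untailed lengths. Tailed ends did not show this step, with 367 reads at 46 nt, 360 at 47 nt and 371 at 48 nt. The tailed share was therefore 46.2% at 47 nt and 59.6% at 48 nt, a difference of 13.5 points (Newcombe interval 8.24 to 18.6). Intervals also lay above 1 for untailed reads at 35, 38 and 51 nt, with ratios of 1.12, 1.12 and 1.18. For reads with 2 adenosines, among 33 lengths, they did so at 33, 37, 50 and 62 nt. The ratios there were 1.12, 1.18, 1.23 and 1.35, the last on 74 reads with an interval of 1.01 to 1.81. Intervals lay below 1 at 4 untailed lengths and at 2 lengths for reads with 2 adenosines. For all tailed reads they lay above 1 at 2 and below 1 at 2 of 33 lengths. Neighbouring ratios share counts, so these lengths are not independent of each other. In the other libraries single lengths were too thin for this comparison, with at most 5 untailed hTERT reads at 46 to 49 nt and at most 5 untailed DKC1 reads.

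**Figure D1:**
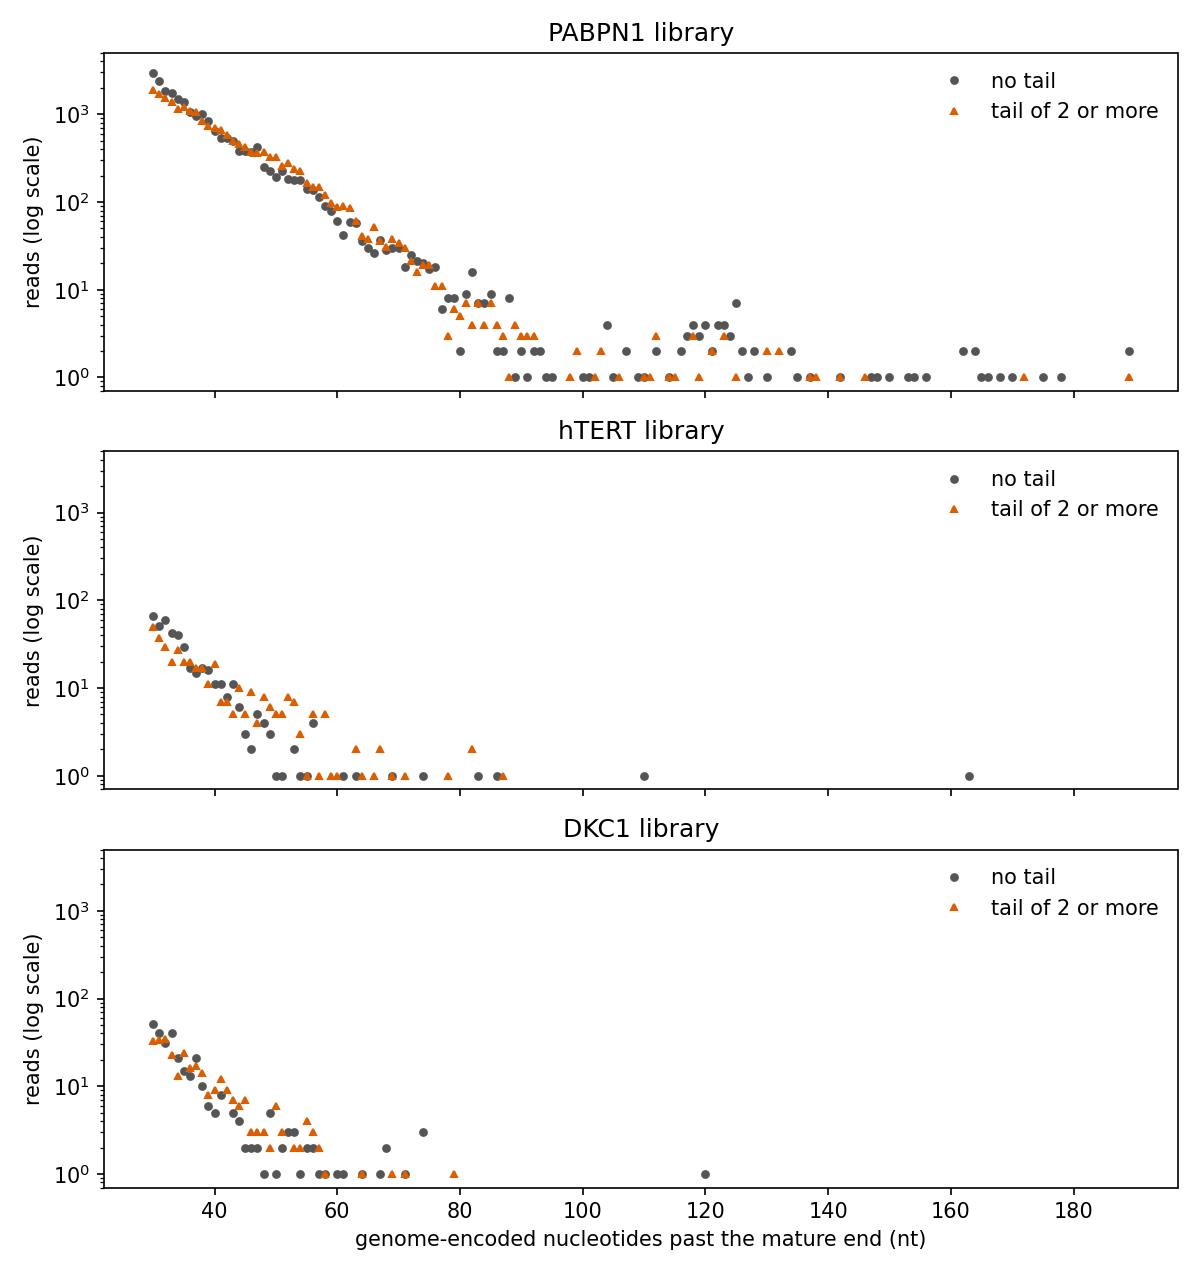
Reads at each addition from 30 nt on (log axis) in the 3 libraries, for ends without a tail (circles) and with 2 or more adenosines (triangles); lengths with 0 reads are not drawn. In PABPN1 both kinds fall along a nearly straight line to about 70 nt. Tailed reads first exceed untailed ones at 36 nt, within counting error, and are again fewer at 38 nt. A thin, mostly untailed scatter remains beyond 100 nt.

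Beyond 70 nt the PABPN1 reads thinned out and then no longer fell steadily. There were 341 reads at 70 to 79 nt, 109 at 80 to 89 nt and 21 at 90 to 99 nt, and the first length without a read was 96 nt. Counts then stood at 14 at 100 to 109 nt (exact Poisson interval 7.65 to 23.5), 27 at 110 to 119 nt (17.8 to 39.3), 35 at 120 to 129 nt (24.4 to 48.7) and 11 at 130 to 139 nt (5.49 to 19.7). The interval at 120 to 129 nt lay above those at 100 to 109 nt and 130 to 139 nt but overlapped that at 90 to 99 nt (13.0 to 32.1), and no length in it had over 8 reads. This rise, too, was picked out once its counts were known. The longest PABPN1 end, at 189 nt, had 3 reads, 1 of them tailed. The longest hTERT end was at 163 nt and the longest tailed one at 87 nt, and the respective DKC1 values were 120 and 79 nt. Each of these rests on 1 read. The longest length found also depends on the number of long reads, which was far lower in hTERT and DKC1 than in PABPN1.

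Long ends reached less far past 30 nt with hTERT and DKC1 than with PABPN1. The median addition among long ends was 36 nt in PABPN1 and 34 nt in both hTERT (order-statistic interval 34 to 35) and DKC1 (33 to 35). The share of long ends that reached 40 nt was 33.2% in PABPN1, 26.4% in hTERT and 24.2% in DKC1. PABPN1 stood 6.82 points above hTERT (3.66 to 9.76) and 9.04 points above DKC1 (5.47 to 12.3). The difference of 2.22 points between hTERT and DKC1 had an interval that includes 0 (-2.36 to 6.70).

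Split by tail, the gap between PABPN1 and hTERT exceeded counting error among untailed ends but not among tailed ends, and the difference between these gaps was not tested. Of untailed long ends, 29.3% reached 40 nt in PABPN1, 18.8% in hTERT and 19.6% in DKC1. Here PABPN1 was 10.5 points above hTERT (6.55 to 14.0) and 9.72 points above DKC1 (4.91 to 13.8). Of tailed long ends, 37.5% reached 40 nt in PABPN1, 35.1% in hTERT and 28.9% in DKC1. PABPN1 was then 2.41 points above hTERT, with an interval of -2.55 to 7.07 that includes 0, and 8.63 points above DKC1 (3.27 to 13.5). Within each library tailed ends reached 40 nt more often than untailed ends, by 8.15 points in PABPN1 (7.25 to 9.04) and 9.24 points in DKC1 (2.47 to 15.9). The gap was 16.3 points in hTERT (10.2 to 22.2). Of untailed ends, 10.2% reached 50 nt in PABPN1, 4.13% in hTERT and 8.68% in DKC1. At that length PABPN1 was still 6.03 points above hTERT (3.69 to 7.58), but PABPN1 minus DKC1 was 1.48 points with an interval that includes 0 (-2.20 to 4.15), and hTERT minus DKC1 was -4.55 points (-8.50 to -1.05). At 50 nt the tailed excess was 3.80 points in PABPN1 (3.18 to 4.42) and 10.01 in hTERT (6.12 to 14.1), but 0.171 in DKC1 (-4.37 to 4.74), where 27 tailed and 27 untailed ends remained.

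**Figure D2:**
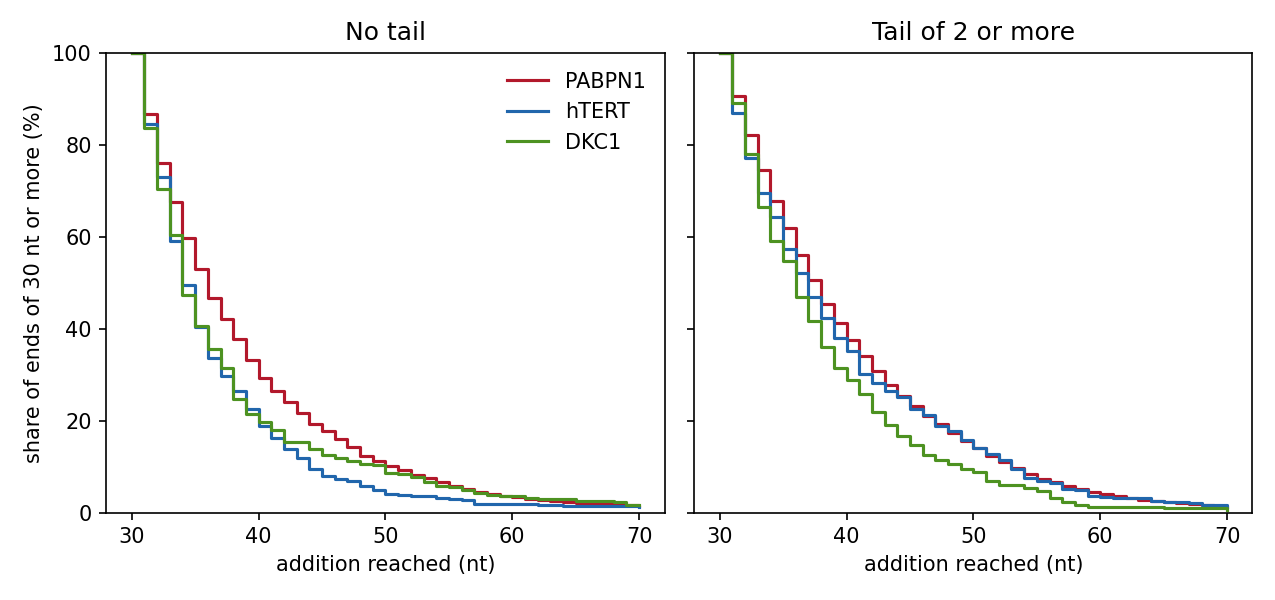
Share of ends extended 30 nt or more (vertical axis, %) that reach each addition (horizontal axis, nt), for untailed ends on the left and tailed ends on the right, with 1 line per library. Among untailed ends the PABPN1 line lies above the others at 40 nt (29.3% against 18.8% and 19.6%), and among tailed ends the DKC1 line lies below the others at 40 nt (28.9% against 37.5% and 35.1%).

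Tails, taken as 2 or more adenosines, were carried by a share of long ends that was close between the libraries. Tails were found on 20165 of 42286 PABPN1 long ends, 47.7% (exact interval 47.2 to 48.2). They were found on 382 of 818 hTERT long ends, 46.7% (43.2 to 50.2), and on 305 of 616 DKC1 long ends, 49.5% (45.5 to 53.5). PABPN1 differed from hTERT by 0.99 points (Newcombe interval -2.47 to 4.42) and from DKC1 by -1.83 points (-5.79 to 2.14), so gaps of a few points in either direction remain possible. Whether some of the few hTERT and DKC1 long reads belong to another library was not tested here either. The closeness also depended on the definition. Counting only tails of at least 3, the shares were 16.2%, 20.8% and 17.9%, and from 40 nt on the PABPN1 share minus the hTERT share was -8.23 points (-14.5 to -1.55). The libraries were already close in the class just below, 20 to 29 nt, with tailed shares of 25.6%, 24.4% and 21.6%. There PABPN1 minus hTERT was 1.19 points with an interval that includes 0 (-0.030 to 2.37), and PABPN1 minus DKC1 was 3.93 points (2.65 to 5.16). At 10 to 19 nt PABPN1 stood 7.02 points above hTERT (6.81 to 7.23) and 7.58 points above DKC1 (7.36 to 7.80). Long ends exceeded the ends of 20 to 29 nt in tailed share by 22.1 points in PABPN1 (21.6 to 22.6) and 22.3 points in hTERT (18.7 to 25.9). In DKC1 the excess was 27.9 points (23.7 to 31.99). In PABPN1 this was a difference between pooled classes and not a step at 30 nt. Its tailed share was 39.7% at 29 nt and 39.4% at 30 nt. Within the lower class, PABPN1 had 6500 tailed and 27776 untailed reads at 20 nt, against 2284 and 3472 at 29 nt. At 29 and 30 nt the shares were 30.4% of 135 and 42.7% of 117 reads in hTERT. In DKC1 they were 30.9% of 123 and 39.3% of 84 reads. In both libraries the intervals of these lengths overlapped. The tables have no column for a tail of 1 adenosine, and how added adenosines were told from genome-encoded ones was not given in the sources used here.

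In PABPN1 the tailed share was highest at 50 to 69 nt and lower beyond. It was 44.6% at 30 to 39 nt (44.1 to 45.2), 52.8% at 40 to 49 nt (51.8 to 53.8), 56.8% at 50 to 59 nt (55.1 to 58.4) and 57.9% at 60 to 69 nt (54.7 to 61.0). The first length with more tailed than untailed reads was 36 nt, with 1084 against 1049, a gap within counting error. Untailed reads prevailed again at some longer lengths, such as 38 nt (1007 against 845) and 47 nt (420 against 360). The last length of at least 50 reads where tailed reads did not prevail was 67 nt, with 36 against 37. At 48 nt the reads with exactly 2 adenosines, 257, first exceeded the 251 untailed reads, a gap within counting error. At 49 nt they were again fewer, 215 against 227. At 70 to 99 nt the share was 48.4%, which is 8.62 points below that at 50 to 69 nt (interval of the difference -13.3 to -3.89). Beyond 99 nt, 31 of 110 ends were tailed, 28.2% (20.02 to 37.6), which is 28.8 points below (-36.5 to -19.7). The ends of 110 to 129 nt, where the counts rose again, had 17 tailed of 62 reads.

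Single lengths varied around this course. The lowest tailed shares among PABPN1 lengths with at least 50 reads were at 30 nt (39.4% of 4828 reads), 31 nt (41.8% of 4072) and 34 nt (43.8% of 2637). The highest were at 61 nt (67.9% of 131 reads, interval 59.2 to 75.8), 66 nt (66.7% of 78, 55.1 to 76.9) and 50 nt (62.7% of 520, 58.4 to 66.9). From 30 to 69 nt the share rose at 21 of 39 steps from a length to the next, so the rise shows over classes and not from base to base.

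The other libraries also had more tails at 40 to 49 nt than at 30 to 39 nt. In hTERT, 41.2% of 602 ends were tailed at 30 to 39 nt and 55.6% of 144 at 40 to 49 nt, a difference of 14.4 points (5.29 to 23.1). In DKC1 the shares were 46.5% of 467 and 64.2% of 95, a difference of 17.7 points (6.75 to 27.7). At 40 to 49 nt PABPN1 minus DKC1 was -11.4 points (-20.4 to -1.35), and PABPN1 minus hTERT was -2.76 points with an interval that includes 0 (-10.7 to 5.46). At 50 to 59 nt, 41 of 51 hTERT ends were tailed, 80.4% (66.9 to 90.2), and the PABPN1 share minus the hTERT share was -23.6 points (-32.3 to -10.6). In DKC1, 23 of 39 ends were tailed there, 58.97% (42.1 to 74.4), and the PABPN1 share differed from it by -2.18 points (-16.2 to 13.5). Beyond 59 nt only 21 hTERT and 15 DKC1 reads remained, and shares there were too uncertain to place.

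**Figure D3:**
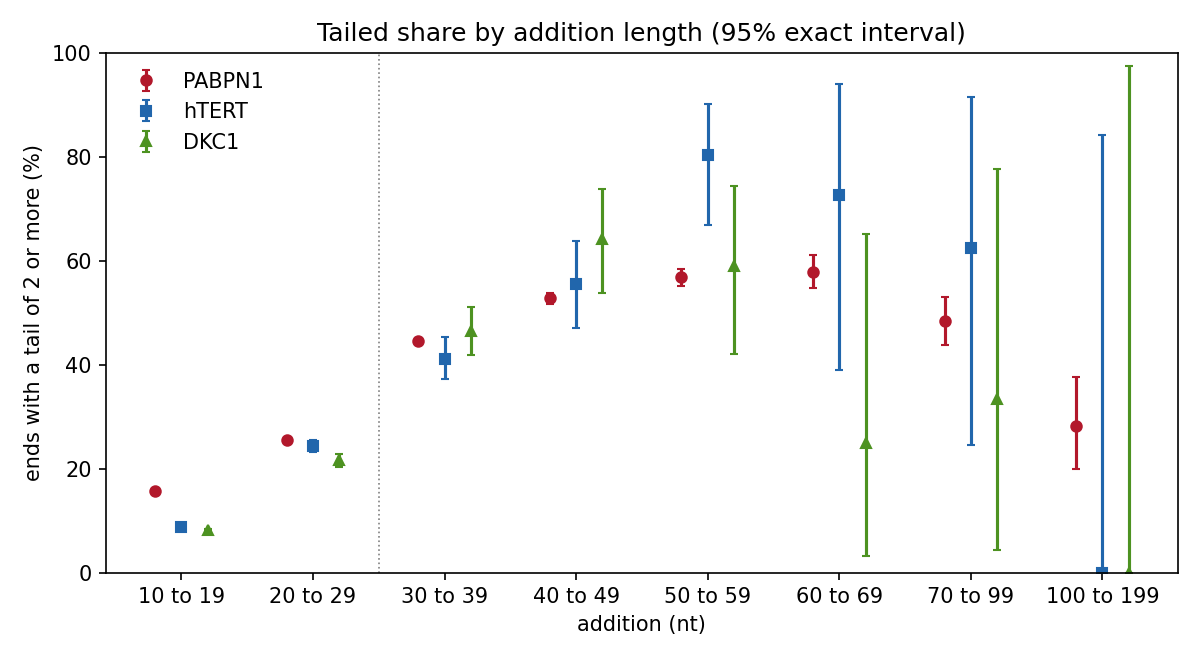
Share of ends with 2 or more adenosines (vertical axis, %) by class of addition in the PABPN1 (circles), hTERT (squares) and DKC1 (triangles) libraries, with 95% exact counting intervals; classes right of the dotted line are the long ends. PABPN1 rises from 44.6% at 30 to 39 nt to 57.9% at 60 to 69 nt and is 28.2% beyond 99 nt, where hTERT and DKC1 have 2 and 1 reads.

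Because a tail of adenosines adds to the length of a molecule, the shares were also computed by total added length, addition plus tail, a choice made after seeing the data. In PABPN1 they were 53.0% at 30 to 39 nt, 58.6% at 40 to 49 nt, 63.0% at 50 to 59 nt, 64.9% at 60 to 69 nt and 56.4% at 70 to 99 nt. From 100 nt on, 34 of 113 ends were tailed, 30.1% (21.8 to 39.4). The share thus rose and fell over the same classes as by addition alone.

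Tails on long ends were mostly of 2 adenosines. In PABPN1, tails of 2 formed 66.0% of tailed long ends (65.3 to 66.6), tails of 3 formed 20.5%, tails of 4 formed 9.51%, tails of 5 formed 1.38% and the column headed 6 held 2.59%. In hTERT, tails of 2 formed 55.5% (50.4 to 60.6), tails of 3 formed 27.0% and tails of 4 formed 12.3%. In DKC1 these shares were 63.9% (58.3 to 69.3), 25.6% and 8.20%. Tails of 2 were thus 10.5 points more frequent among tailed ends in PABPN1 than in hTERT (5.53 to 15.5), while hTERT minus DKC1 was -8.44 points (-15.6 to -1.04). PABPN1 and DKC1 differed by 2.04 points, with an interval that includes 0 (-3.19 to 7.61). At 10 to 29 nt, where most hTERT reads lie below 20 nt, tails of 2 formed 61.2% of tailed ends in PABPN1 and 59.5% in hTERT. At 20 to 29 nt alone these shares were 61.2% and 57.95%, and at 1 to 9 nt they were 71.8% and 59.3%. A larger share of tails of 2 in PABPN1 than in hTERT was thus not particular to long ends.

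Tails of 2 made up a rising share of tailed PABPN1 ends from 30 to 69 nt. The share of 2 adenosines among tailed ends was 61.2% at both 10 to 19 nt and 20 to 29 nt, then 63.5% at 30 to 39 nt (62.6 to 64.3), 69.1% at 40 to 49 nt (67.8 to 70.4), 71.7% at 50 to 59 nt (69.7 to 73.7) and 73.6% at 60 to 69 nt (69.7 to 77.2). From 40 nt on the intervals of neighbouring classes overlapped. At 70 to 99 nt the share was 68.9% of 228 tailed ends (62.4 to 74.8), which overlaps the classes before it. The share at 1 to 9 nt was 71.8% (71.5 to 72.1), so values this high were not particular to long ends. Tails of 4 were 11.3% of tailed ends at 20 to 29 nt, 10.6% at 30 to 39 nt and 7.38% at 40 to 49 nt. The column headed 6 did not follow them, with 2.51% at 30 to 39 nt (2.24 to 2.79) and 3.27% at 40 to 49 nt (2.78 to 3.81). Set against untailed reads instead, every 100 untailed reads were matched by 21.0 reads with 2 adenosines at 20 to 29 nt, 51.2 at 30 to 39 nt, 77.3 at 40 to 49 nt, 94.3 at 50 to 59 nt and 101 at 60 to 69 nt. Tails of 3 went from 17.5 per 100 untailed reads at 30 to 39 nt to 21.5 at 40 to 49 nt and 23.0 at 50 to 59 nt. Tails of 4 stood at 8.58, 8.25 and 10.4 in these classes. At 30 to 49 nt the halving distance was 7.85 nt for reads with 2 adenosines, against 6.39 nt for 3, 5.78 nt for 4 and 5.55 nt for untailed reads. It was 4.63 nt for 5 adenosines and 9.47 nt for the column headed 6, which rest on 257 and 471 reads. This order did not hold in each class of 10 nt, and the distances have no interval. Tails of 4 halved every 4.27 nt at 30 to 39 nt and every 15.3 nt at 40 to 49 nt, the latter on 350 reads. In these classes the distances were 9.04 and 7.77 nt for tails of 2, and 5.19 and 6.84 nt for untailed reads.

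The longest listed tails did not continue the fall. At 30 to 39 nt PABPN1 had 8002 reads with 2 adenosines, 2736 with 3, 1341 with 4, 211 with 5 and 316 in the column headed 6, and the last column exceeded that of 5 at each of these 10 lengths. Over 30 to 58 nt it did so at 26 of 29 lengths. hTERT had 4 reads with 5 adenosines and 16 in the last column over all long ends, and DKC1 had 3 and 4. The headings do not say whether the last column also holds tails longer than 6. Among PABPN1 lengths with at least 50 tailed reads, the highest shares of tails of 3 or more were at 34 nt (40.9% of 1154), 30 nt (40.1% of 1903) and 35 nt (39.6% of 1204).

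**Figure D4:**
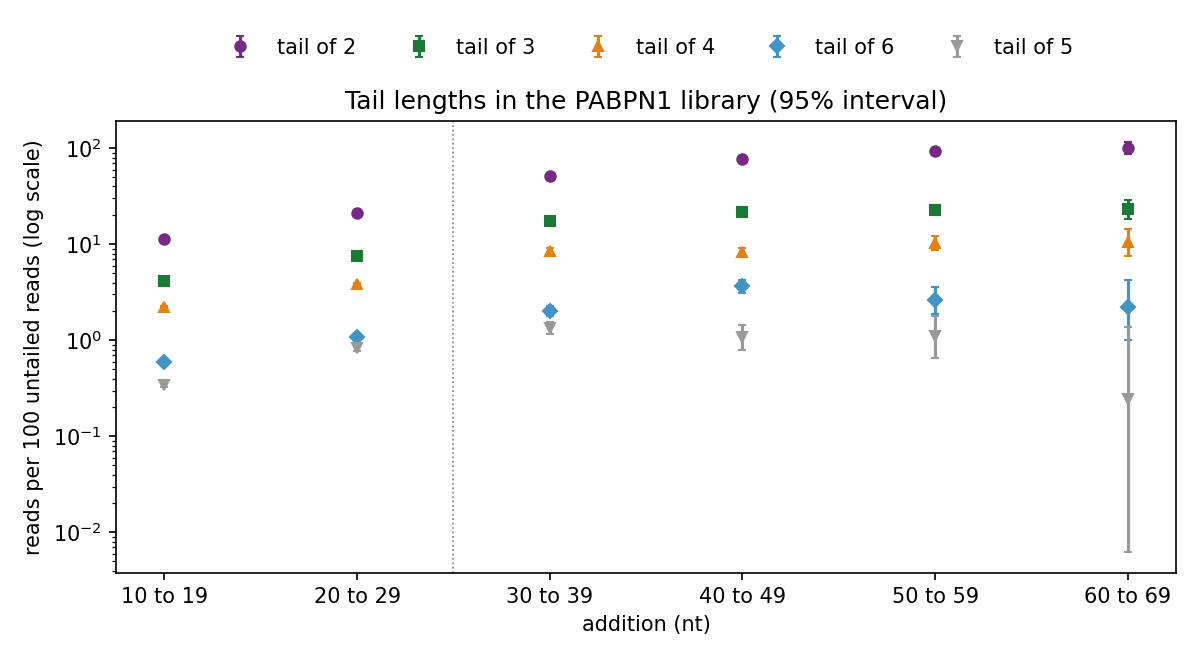
Reads of each listed tail length per 100 untailed reads (log axis) by class of addition in the PABPN1 library, with 95% exact counting intervals; classes right of the dotted line are the long ends. Tails of 2 climb from 51.2 at 30 to 39 nt to 101 at 60 to 69 nt while tails of 4 stay between 8.25 and 10.6, and in each class drawn the column headed 6 lies above that of 5.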

How the data were processed

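The authors deposited whole-number read counts in 1 table per library, per the file headers: rows are lengths of genomic addition and columns are polyadenylation lengths. Per the submitters' processing notes, cutadapt, Bowtie, Bowtie2 and the hg38 build were involved, with no role stated, and how duplicates were treated is not given in the sources used here. Library totals were 2658507 (PABPN1), 3040560 (hTERT) and 2996292 (DKC1) reads, so 3 reads, about the limit that a count of 0 allows, are 0.000113%, 9.87e-05% and 0.0001001% of reads. Counts were used without normalization, and rows were pooled into classes. Shares have Clopper-Pearson, differences Newcombe, ratios Katz and counts Poisson intervals. A ratio to neighbouring lengths has a log-normal interval. Halving distances are least-squares slopes of log2 reads, computed here from the deposited counts. Functions were tested on simulated data. Named lengths follow a rule: the boundary, local maxima of 50 or more reads in PABPN1, its 3 highest and 3 lowest tailed shares among lengths of 50 or more reads, the 3 highest shares of tails of 3 or more among lengths of 50 or more tailed reads, the 3 fullest lengths outside PABPN1, and the longest ends. Other lengths are named outside this rule. They come from the ratios to neighbouring lengths, added after seeing the data, and from comparing tailed with untailed reads. The members and lists were chosen with earlier results of these data known. The gene position is from the RefSeq table of GRCh38.p14. Computations ran in Python 3.11.15 with scipy 1.17.1 and numpy 2.4.6, and figures were drawn with matplotlib 3.10.9.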

Additional observations from a re-analysis of the deposited data

How the results depend on the processing

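Among 47 shares, ratios and medians recomputed under other settings, 31 left the counting interval of the main value and 16 did not. Settings that shift the boundary, drop the addition of 30 nt or raise the smallest tail change the quantity itself. Many of these moves follow from the definitions, so the tally does not measure how robust a value is. Of 4 recomputed counts of runs, 3 changed. Values follow the order PABPN1, hTERT, DKC1. The share of long ends was 3.18%, 0.0623% and 0.0532% from 25 nt on, 0.528%, 0.00710% and 0.00497% from 40 nt on, and 1.41%, 0.0231% and 0.0178% without the addition of 30 nt. With addition plus tail of 30 nt or more, added after seeing the data, it was 1.86%, 0.0317% and 0.0248%. Only additions with 10 or more reads gave 0.0237% in hTERT and 0.0175% in DKC1. The ratio of PABPN1 over hTERT and DKC1 was 51.1 and 59.9 with the boundary at 25 nt, against 74.4 and 106 with it at 40 nt. Tailed shares were 16.2%, 20.8% and 17.9% for 3 or more adenosines, which put hTERT above PABPN1, and 53.8%, 62.0% and 59.1% from 40 nt on. Without the addition of 30 nt the PABPN1 tailed share was 48.8%. Median additions were 35 nt (PABPN1) and 33 nt (hTERT) for untailed reads, 37 and 36 nt for tailed reads, and 37 nt in PABPN1 without the addition of 30 nt. Runs of additions with enough reads numbered 2 with a minimum of 20 reads, with untailed reads only and with tailed reads only, because of small second runs at 82 nt, 62 to 63 nt and 66 nt. Tails of 2 formed 70.1% of tailed PABPN1 ends from 40 nt on. Depth limits hTERT and DKC1, which hold 216 and 149 reads from 40 nt on. No paired analysis was possible because every protein has a single library.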
